A study of Mus musculus with 9 samples.

Results

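The AP-1 Fos and Jun family was read in 3 kinds of mouse cell: VSEL, the very small embryonic-like cells of bone marrow, HSC, the haematopoietic stem cells, and ESC, the embryonic stem cell line ESC-D3. All probe sets that the platform annotation assigns to Fos, Fosb, Fosl1, Fosl2, Jun, Junb, Jund or Atf3 were taken, which gave 8 of the 18193 genes measured and 12 of the 45037 probe sets tested. A probe set is a group of short probes for one transcript. Fosl1, Fosl2, Jun and Jund each had 2 probe sets, and the other members had 1. Bone marrow of C57BL/6 mice at 4 weeks of age gave the VSEL and HSC. Both gates took Sca-1+ cells without lineage markers, and VSEL were CD45- while HSC were CD45+. ESC-D3 is a pluripotent line of strain 129S2/SvPas, cultured with 10 ng/ml of the cytokine LIF on a 0.1% gelatin coat and detached with trypsin before the sort. Each library was made from 20 sorted cells and hybridised to 1 Affymetrix array, and each cell type had 3 arrays. Whether the libraries of a cell type stem from different mice or dishes is not stated, so every p-value measures only how much these libraries vary, which may be technical.

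AP-1 is a dimer of leucine zipper proteins that binds DNA. Fos proteins cannot pair with themselves and need a Jun partner, while Jun proteins pair with each other or with Fos and Atf members. Fos, Fosb, Jun, Junb and Atf3 are immediate early or stress genes, switched on within minutes of a signal through MAP kinases, serum response factor and CREB, and their mRNAs decay quickly. In blood cells AP-1 is known as a driver of cytokine genes in activated T cells and of myeloid maturation. Handling and sorting of cells are known to raise several of these mRNAs.

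All values are log2 RMA values, on which a step of 1 is a factor of 2. VSEL arrays 2 and 3 correlated at r = 0.989, against 0.831 to 0.957 for every other pair within a group, and 1 probe set differed by over 4-fold between them, against 1565 to 4232 in those pairs. They differed far less than any other pair and were counted as 1 library, VSEL 2+3, which leaves 2 VSEL, 3 HSC and 3 ESC libraries. The 95th percentile of 39 olfactory receptor genes, a stand-in for background, lay between 6.30 and 6.44 in VSEL, between 5.57 and 5.85 in HSC and between 5.62 and 5.69 in ESC. The level of Ptprc, the CD45 gene, was 3.25 and 3.59 in the VSEL libraries, 13.40 to 13.68 in HSC and 2.94 to 3.17 in ESC. Of 14 pluripotency genes, 13 lay above the olfactory percentile in every VSEL library, 3 in every HSC library and 13 in every ESC library. Of 11 stem and progenitor genes, 4 did so in VSEL, 7 in HSC and 6 in ESC. All 12 T and NK cell genes lay above it in every HSC library. In every VSEL library 11 of 13 granulocyte and monocyte, 6 of 7 erythroid and 6 of 9 B lineage genes did so. These counts were 13, 6 and 4 in HSC, and 4, 2 and 1 in ESC. The median over all genes lay below the percentile in VSEL (6.08 and 6.09). It lay above it in HSC (6.04 to 6.25) and ESC (6.25 to 6.26). Most genes thus pass the percentile in each HSC and ESC library but not in each VSEL library, so the counts do not compare like with like. The names HSC and VSEL thus stand here for the sort gates.

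The sequences before the start sites of the members with the largest called differences between VSEL and HSC are shown first, Jun being called on 1417409_at alone. Jund came next on 1449117_at, at a log2 difference of -2.74 against -2.92 for Junb (VSEL minus HSC). Its window is not printed and held no motif marked here. RefSeq (GRCm38.p6) promoters were at hand for 7 of the 8 members, namely all but Fosl1. Each line gives the 250 bases before the annotated start, 5′ to 3′ on the gene's strand. Capitals mark TGACG on either strand, the core of the site that CREB and Atf proteins bind, or TGACATCA, the site type that Jun and Atf2 bind.
Fos (chr12:85473640-85473889, plus strand): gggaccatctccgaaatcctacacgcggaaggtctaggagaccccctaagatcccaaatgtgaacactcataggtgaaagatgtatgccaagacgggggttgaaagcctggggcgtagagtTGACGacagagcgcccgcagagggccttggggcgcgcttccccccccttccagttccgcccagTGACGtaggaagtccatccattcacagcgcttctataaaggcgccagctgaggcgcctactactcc
Fosb (chr7:19310046-19310295, minus strand): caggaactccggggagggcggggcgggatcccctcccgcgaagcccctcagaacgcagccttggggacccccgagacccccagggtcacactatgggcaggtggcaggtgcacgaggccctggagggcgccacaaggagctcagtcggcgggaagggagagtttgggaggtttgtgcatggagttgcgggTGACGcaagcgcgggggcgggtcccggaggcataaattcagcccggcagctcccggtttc
Jun (chr4:95052223-95052472, minus strand): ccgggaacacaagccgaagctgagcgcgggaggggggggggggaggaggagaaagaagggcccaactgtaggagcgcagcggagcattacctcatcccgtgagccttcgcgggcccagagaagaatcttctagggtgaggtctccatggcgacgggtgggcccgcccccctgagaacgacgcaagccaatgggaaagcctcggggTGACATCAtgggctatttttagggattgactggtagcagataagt
Junb (chr8:84978749-84978998, minus strand): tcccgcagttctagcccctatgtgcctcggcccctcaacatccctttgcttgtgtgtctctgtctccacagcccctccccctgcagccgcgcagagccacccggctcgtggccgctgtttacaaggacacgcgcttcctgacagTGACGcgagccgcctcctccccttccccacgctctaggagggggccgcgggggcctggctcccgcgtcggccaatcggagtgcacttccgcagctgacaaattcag
Atf3 (chr1:191183334-191183583, minus strand): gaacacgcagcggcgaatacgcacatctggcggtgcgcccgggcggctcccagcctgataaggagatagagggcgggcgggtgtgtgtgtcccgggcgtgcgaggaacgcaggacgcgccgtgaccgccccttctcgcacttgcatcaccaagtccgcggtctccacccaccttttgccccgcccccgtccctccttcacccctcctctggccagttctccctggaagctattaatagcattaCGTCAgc

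TGACG was found in 4 of these promoters, at bases -129 and -66 before the start of Fos, -60 in Fosb, -106 in Junb and, on the other strand, at -7 in Atf3. TGACATCA began at -45 in Jun. Among 32536 distinct mouse promoters of the same length, 17.9% held TGACG and 2.84% held TGACATCA, on either strand. The full site TGACGTCA, which contains TGACG, is in 1.56% of promoters and in none of the 7. The AP-1 site TGACTCA is in 4.45% and the CArG box, to which serum response factor binds, in 1.48%, and neither is in these 7 windows. The windows of Fosl2 and Jund held none of these motifs. These matches are letters in a window and say nothing of binding. Only the 250 bases before each start were searched, so a motif absent here may lie farther from the start.

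**Figure D1:**
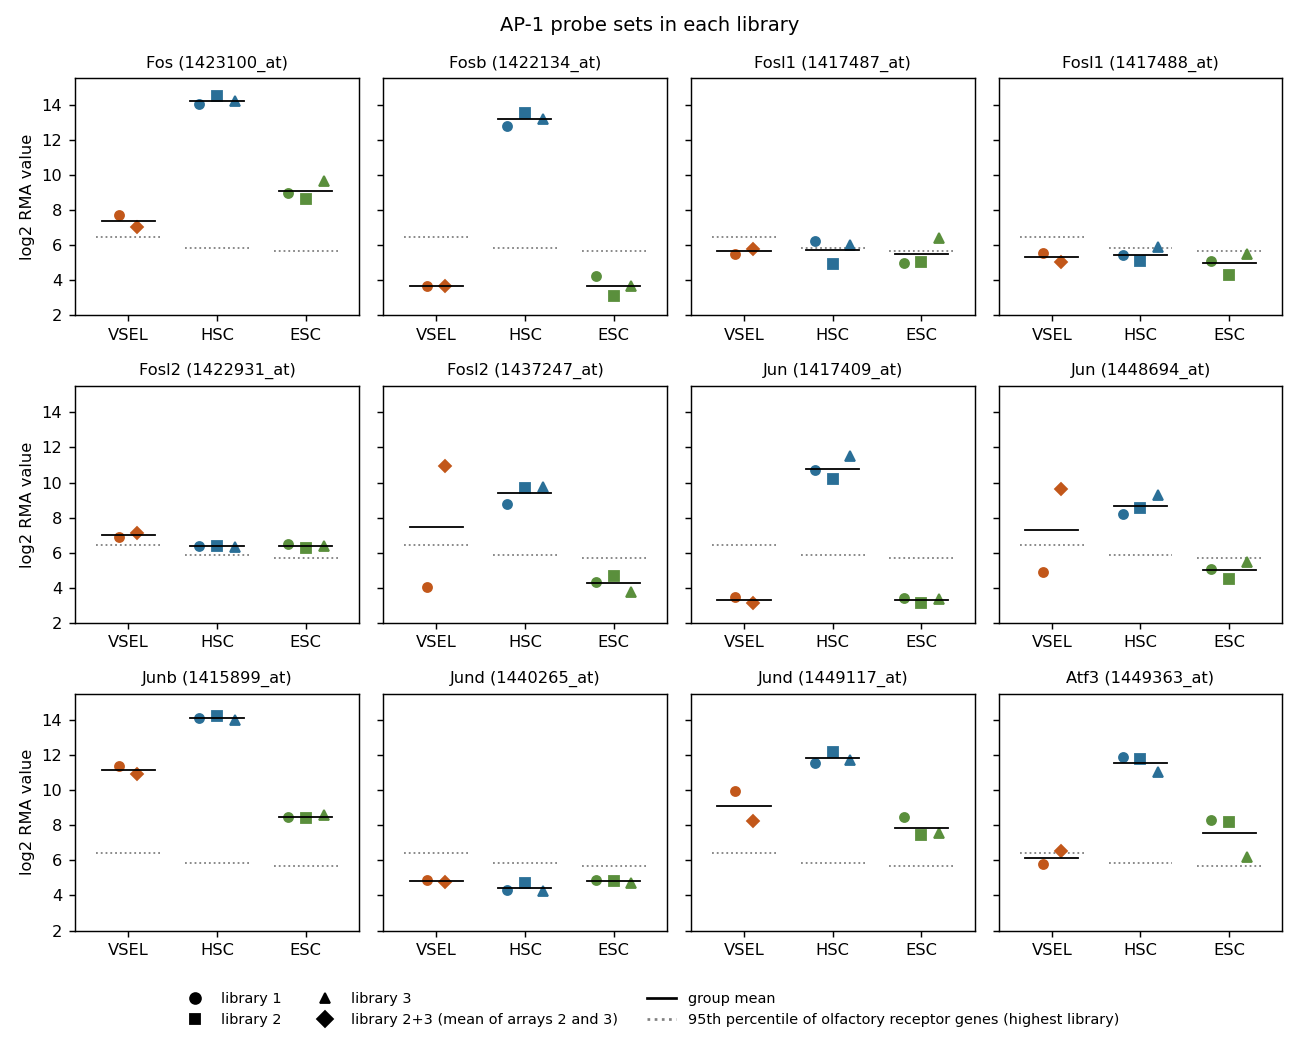
Log2 RMA value (y axis) of the 12 AP-1 probe sets in the VSEL, HSC and ESC libraries, with a symbol per library, a black line at the group mean and a dotted line at the highest olfactory receptor 95th percentile of the group. Fos, Fosb, Junb and Atf3, Jun probe set 1417409_at and Jund probe set 1449117_at are highest in all 3 HSC libraries, and the 2 VSEL libraries split on Jun 1448694_at and Fosl2 1437247_at.

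Among the Fos proteins, Fos and Fosb were far lower in VSEL than in HSC. Fos, the founding member, lay at 7.71 and 7.04 in VSEL 1 and VSEL 2+3, at 14.01, 14.47 and 14.20 in HSC, and at 8.98, 8.60 and 9.65 in ESC. The 3 cell types did not overlap, with HSC highest and VSEL lowest. Fos was 116-fold lower in VSEL than in HSC, with a difference of -6.86 on the log2 scale (SE 0.35; limma, Benjamini-Hochberg adjusted p = 0.000213). It fell by 1.70 in VSEL against ESC (SE 0.35, limma adjusted p = 0.0301) and was 35.6-fold higher in HSC than in ESC (limma adjusted p = 0.000181). The VSEL against ESC call of Fos was lost in 9 of 20 alternatives, among them leaving out VSEL 2+3, HSC 3, ESC 1 or ESC 3 (adjusted p of 0.0982, 0.0538, 0.0749 and 0.052).

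Fosb, which has a longer and a shorter splice form, lay at 3.67 and 3.65 in VSEL, at 12.81, 13.53 and 13.19 in HSC and at 4.21, 3.10 and 3.69 in ESC. VSEL and ESC both lay below the olfactory percentile and overlapped. The log2 difference was -9.52 in VSEL against HSC (SE 0.35, limma adjusted p = 5e-05) and 9.51 in HSC against ESC (SE 0.31, limma adjusted p = 1.33e-05). Where every library of a group lay at or below its olfactory percentile, the fold was bounded by putting that group's libraries at the percentile. Fosb was thus at least 112-fold lower in VSEL than in HSC and at least 183-fold higher in HSC than in ESC. VSEL and ESC differed by -0.01 (SE 0.35, limma adjusted p = 0.991).

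Fosl1 and Fosl2 encode Fra-1 and Fra-2, which lack the strong activation domain of Fos. Fosl1 on probe set 1417487_at had values of 5.51 and 5.76 in VSEL, of 6.23, 4.95 and 5.98 in HSC and of 4.98, 5.06 and 6.43 in ESC, and its other probe set lay between 4.30 and 5.87 over all libraries. Most of these values are within the olfactory range, the groups overlapped, and no contrast was called on either probe set (limma adjusted p of 0.55 to 0.926). Fosl2 probe set 1422931_at lay at 6.88 and 7.11 in VSEL, at 6.38, 6.36 and 6.34 in HSC and at 6.52, 6.25 and 6.40 in ESC. It was 1.55-fold higher in VSEL than in HSC (limma adjusted p = 0.0273) and 1.52-fold higher than in ESC (limma adjusted p = 0.0315), within 1 log2 unit of the olfactory percentile in every library. The lower quartile of all genes was also higher in VSEL (4.72 to 4.77) than in HSC (4.49 to 4.53) and ESC (4.54 to 4.56), while the upper quartile was lower in VSEL (7.64 and 7.66) than in HSC (8.55 to 8.64) and ESC (8.50 to 8.56). The part of this narrower range of VSEL values in the differences of dim and bright genes was not tested. The call against HSC was lost in 10 and that against ESC in 12 of the 19 alternatives that tested this probe set.

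The other Fosl2 probe set, 1437247_at, split the VSEL libraries. It lay at 4.02 in VSEL 1 and 10.93 in VSEL 2+3, at 8.76, 9.69 and 9.73 in HSC, and at 4.33, 4.64 and 3.76 in ESC. VSEL 1 lay in the range of ESC and VSEL 2+3 above every HSC library. No contrast was called (limma adjusted p of 0.12 to 0.489), with an SE of 1.62 to 1.81. With VSEL 1 as the sole VSEL library the log2 difference from HSC was -5.38 (adjusted p = 0.0049), and with VSEL 2+3 alone it was 1.53 (adjusted p = 0.118). In fits with 1 VSEL library the spread comes from HSC and ESC alone, and that library is assumed to vary like them. Without either VSEL library, HSC against ESC was called at 5.15 (adjusted p = 0.000939).

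Among the Jun proteins, Jun itself gave different answers on its probe sets, although both rest on the same RefSeq accession. On 1417409_at Jun lay at 3.46 and 3.11 in VSEL, at 10.69, 10.20 and 11.49 in HSC and at 3.41, 3.10 and 3.34 in ESC. VSEL and ESC overlapped at background there, and HSC stood apart. The log2 difference was -7.51 in VSEL against HSC (SE 0.37, limma adjusted p = 0.000167) and 7.51 in HSC against ESC (SE 0.33, limma adjusted p = 4.22e-05). With VSEL and ESC at background, Jun was at least 21.4-fold lower in VSEL and at least 5.13 log2 units higher in HSC than in ESC. On 1448694_at Jun lay at 4.89 in VSEL 1, at 9.83 and 9.46 on VSEL arrays 2 and 3, at 8.21, 8.54 and 9.31 in HSC and at 5.08, 4.49 and 5.44 in ESC. VSEL 1 again lay with ESC, while VSEL 2+3 lay above every HSC library, and no contrast was called (limma adjusted p of 0.117 to 0.47). Leaving out either VSEL library, again with the spread taken from HSC and ESC alone, moved the difference. Against HSC the log2 difference was -3.80 with VSEL 1 alone (adjusted p = 0.0148) and 0.96 with VSEL 2+3 alone (adjusted p = 0.288). Against ESC it was -0.12 (adjusted p = 0.927) and 4.64 (adjusted p = 0.01). In HSC against ESC the difference on 1448694_at was 3.68 (SE 1.15), called once 1 VSEL library was left out, which takes the VSEL spread out of the fit (adjusted p = 0.00333).

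**Figure D2:**
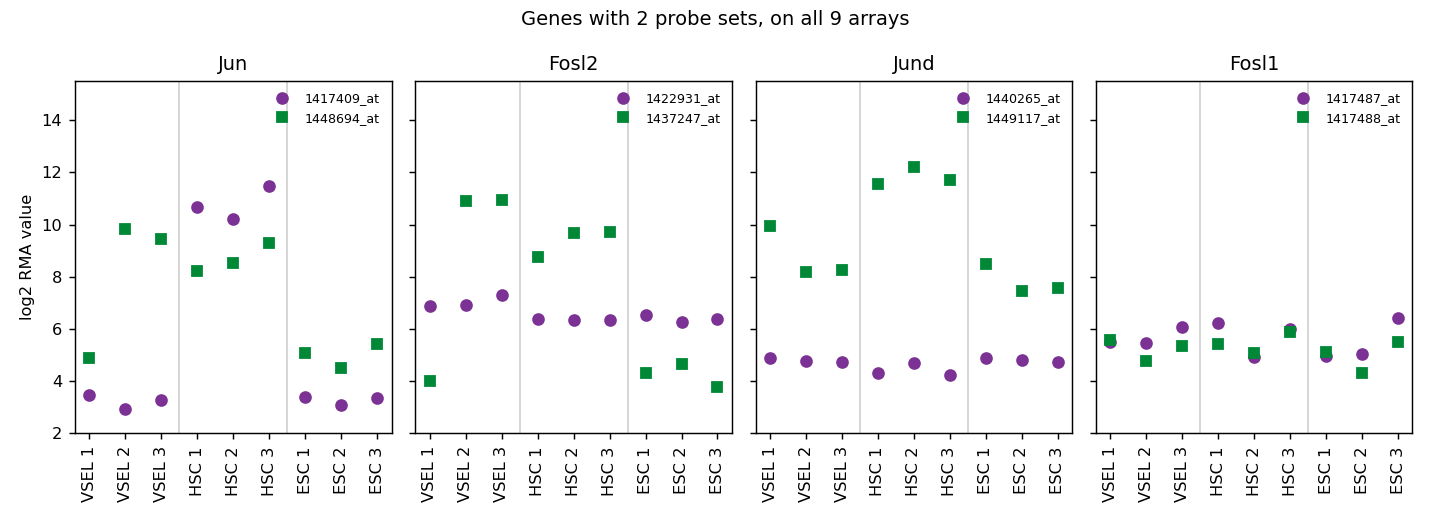
Log2 RMA value (y axis) on each of the 9 arrays (x axis) for Jun, Fosl2, Jund and Fosl1, with a colour and symbol per probe set. Jun 1417409_at is at 2.95 to 3.46 on all VSEL arrays, while 1448694_at is at 4.89 on VSEL 1 and at 9.83 and 9.46 on VSEL 2 and 3.

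Other genes showed the disagreement seen on Jun, counted with limits chosen after its values were seen. Over the genes with several probe sets, 170 had at least 2 probe sets that were more than 3 log2 units higher in HSC than in ESC by their means. In 29 of them, Jun included, 1 probe set differed by over 4 log2 units between the VSEL libraries and another by under 1. The probe set that moved was higher in VSEL 2+3 in 18 of the 29, as for Jun, and higher in VSEL 1 in 11, among them Tnfaip3 and Cd44. Over all probe sets, 809 were higher in VSEL 2+3 and 785 in VSEL 1 by over 4. Probe positions were not used here, and their part in this was not tested.

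Junb, which holds back Jun activity in many settings and drives myeloid maturation, separated all 3 cell types. Its level was 11.40 and 10.95 in VSEL, 14.10, 14.21 and 13.98 in HSC, and 8.47, 8.40 and 8.57 in ESC. No groups overlapped, with HSC highest, VSEL between and ESC lowest. Junb was 7.59-fold lower in VSEL than in HSC (log2 difference -2.92, SE 0.17, limma adjusted p = 0.0003). It was 6.49-fold higher in VSEL than in ESC (2.70, SE 0.17, limma adjusted p = 0.000828) and 49.2-fold higher in HSC than in ESC (5.62, SE 0.15, limma adjusted p = 5.59e-06). Of the 20 alternatives, 1 ended a Junb call, the covariate for the 3' to 5' balance of control transcripts, in VSEL against ESC (adjusted p = 0.0656). That balance is the log2 signal of the 3' minus the 5' probe sets of the actin and Gapdh controls. It lay between 0.729 and 1.07 in VSEL, between 0.733 and 0.962 in HSC and between 0.34 and 0.446 in ESC, so it cannot be told apart from ESC against the marrow cells.

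Jund, the member expressed in resting cells of many tissues, lay on 1449117_at at 9.95 and 8.22 in VSEL, at 11.54, 12.20 and 11.72 in HSC and at 8.49, 7.46 and 7.56 in ESC. HSC stood above both other groups, and VSEL and ESC overlapped. Jund fell by 2.74 in VSEL against HSC (SE 0.56, limma adjusted p = 0.0294) and was 15.9-fold higher in HSC than in ESC (limma adjusted p = 0.00405). The VSEL against HSC difference was -1.88 with VSEL 1 alone and -3.60 with VSEL 2+3 alone. This call was lost without VSEL 2+3 (adjusted p = 0.0637), HSC 1, 2 or 3 (0.065, 0.0702 and 0.0674) or ESC 2 or 3 (0.0506 and 0.0526), and in 3 other alternatives. Probe set 1440265_at of Jund lay at 4.25 to 4.89 in all libraries, below the olfactory percentile, and was not called.

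Atf3, a stress-induced repressor that pairs with Jun proteins, lay at 5.79 and 6.54 in VSEL, at 11.90, 11.76 and 11.03 in HSC and at 8.29, 8.20 and 6.16 in ESC. VSEL and ESC overlapped through ESC 3. Atf3 was 42.4-fold lower in VSEL than in HSC (log2 difference -5.40, SE 0.69, limma adjusted p = 0.00678) and 16.2-fold higher in HSC than in ESC (limma adjusted p = 0.00928; 10.0-fold without ESC 3). Of the VSEL libraries, VSEL 1 lay below the olfactory percentile. It differed by -1.39 between VSEL and ESC and was not called (SE 0.69, limma adjusted p = 0.218), but was called there without ESC 3, at -2.08 (adjusted p = 0.0402).

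**Figure D3:**
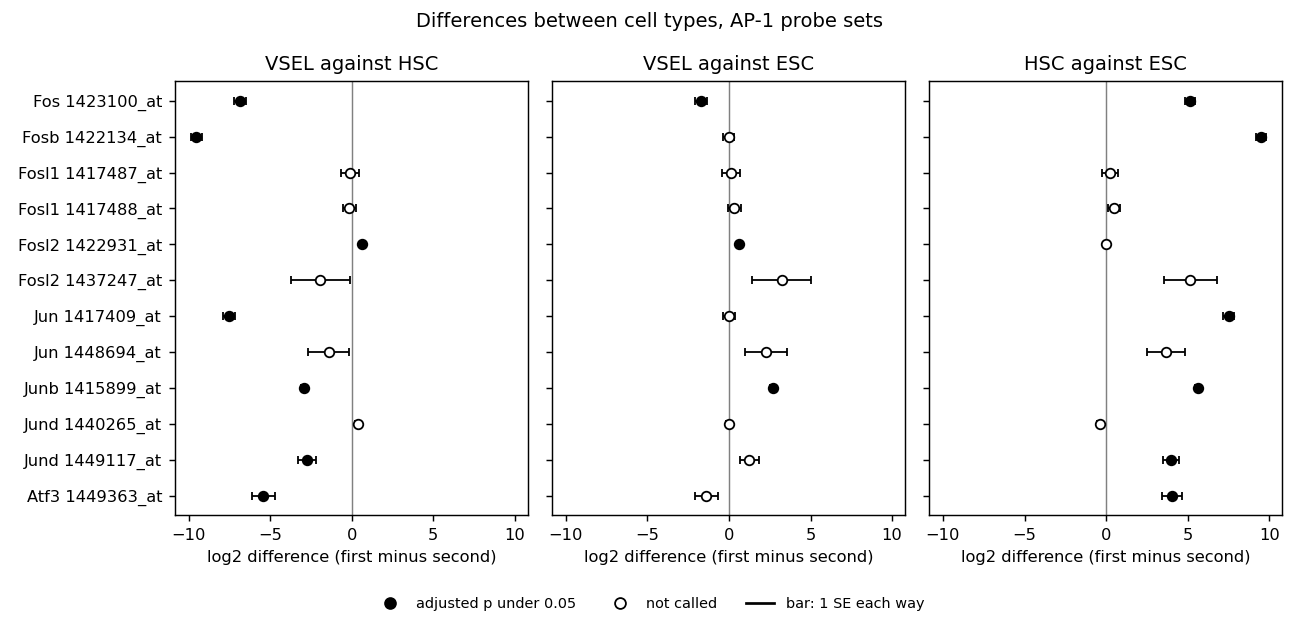
Log2 difference (x axis, first cell type minus second) of the 12 AP-1 probe sets (y axis) in each comparison, with bars of 1 SE each way and filled points for an adjusted p under 0.05. In VSEL against HSC 6 filled points lie to the left and 1 to the right, in VSEL against ESC 1 and 2, and in HSC against ESC 6 lie to the right.

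Over the family, 6 of the 12 probe sets were called lower and 1 higher in VSEL than in HSC, against 6.19% and 8% of all probe sets tested (14.2% either way). The median log2 difference of the 12 was -2.33, and that of all probe sets 0.21. Of the same 12, 1 was called lower and 2 higher in VSEL than in ESC, against 6.93% and 7.13% of all (14.1% either way), with medians of 0.24 and 0.17. In the third pairing, HSC against ESC, 6 were called higher and none lower (9 had an unadjusted p under 0.05), against 4.42% and 6.21% of all (10.6% either way), with medians of 4.00 and -0.02. The VSEL values lay wholly below HSC for 6 of the 12 and wholly above for 2, against 12.8% and 40% of all probe sets (52.8% either way). They lay wholly below ESC for 1 and above for 2, against 16.4% and 38.1% of all (54.5% either way). The HSC values lay wholly above ESC for 8 and below for 1, against 13.3% and 16.7% of all (30% either way). Read by 1 probe set per gene, that with the highest mean, 5 of the 8 genes were lower and none higher in VSEL than in HSC, against 9.04% and 9.29% of all genes. In VSEL against ESC 1 was lower and 1 higher, against 10.3% and 7.59%, and in HSC against ESC 5 were higher and none lower, against 6.38% and 8.89%. VSEL against HSC and HSC against ESC share the HSC libraries, and each of them shares libraries with VSEL against ESC. Of all called probe sets, 56.4% were higher in VSEL than in HSC and 50.7% higher in VSEL than in ESC. A repeated quantile normalization gave 63.9% and 61.2%, centring on ribosomal proteins 77.8% and 71.4%, and centring on the 75th percentile 89.7% and 88.1%. Relative to the deposited scale, the last of these raises every VSEL value by 0.49 against HSC and ESC, and ribosomal centring by 0.22 and 0.21. In VSEL against HSC the median of the 8 genes was between -4.59 and -2.34 in all 20 alternatives, and in HSC against ESC between 4.40 and 4.93. For VSEL against ESC it ranged from -0.058 to 1.18. In such libraries fewer cells of a type and less RNA per cell cannot be told apart.

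Among other leucine zipper partners, 5 of 13 measured genes were lower in VSEL than in HSC and none higher (median -1.0, against 0.22 for all genes). For this and the following lists, the shares of all genes were 9.04% lower and 9.29% higher in VSEL than in HSC. They were 10.3% lower and 7.59% higher in VSEL than in ESC, and 8.89% lower and 6.38% higher in HSC than in ESC. Atf2, a Jun partner, lay at 4.72 ± 0.27 in VSEL and 8.12 ± 0.51 in HSC (SD, n = 2 and 3; limma adjusted p = 0.0213), at least 3.36-fold lower as VSEL were at background. Maff, a small Maf protein, was 5.17-fold lower in VSEL (limma adjusted p = 0.0276). Batf, which pairs with Jun proteins in lymphocytes, was 6.81-fold higher in HSC than in ESC (limma adjusted p = 0.0006), where 3 of 13 were higher and none lower. Relative to ESC, 2 were lower in VSEL and none higher, namely Atf2 and Atf4, a stress response factor. The count lower than in HSC ranged from 2 to 6 over the alternatives, and was 2 or 3 without VSEL 1, VSEL 2+3, HSC 2 or HSC 3. The count of 2 lower than in ESC became 0 without VSEL 1, HSC 2, HSC 3, ESC 2 or ESC 3.

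The next list holds the factors that switch these genes on. Of 11 measured genes of the serum response factor and CREB group, 6 were lower in VSEL than in HSC and none higher (median -2.58). Srf itself, which binds the CArG box, was at least 10.3-fold lower (5.92 ± 0.12 in VSEL and 9.74 ± 0.69 in HSC; limma adjusted p = 0.00617), and Crtc3, a CREB coactivator, was at least 11.5-fold lower (limma adjusted p = 0.0278), both being at background in VSEL. Of the 11, 5 were higher and none lower in HSC than in ESC, led by Elk4, a partner of Srf, at 10.7-fold (limma adjusted p = 0.00996). Srf was the 1 gene of the list called in VSEL against ESC, at least 2.72-fold lower (limma adjusted p = 0.0491). That call was lost without VSEL 2+3, HSC 1, HSC 3 or any ESC library. The count lower in VSEL than in HSC ranged from 3 to 8 over the alternatives, and the count higher in HSC than in ESC fell to 3 without HSC 1, HSC 3 or ESC 3.

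The MAP kinase cascade had 15 measured genes, of which 2 were lower and 1 higher in VSEL than in HSC (median -0.44). Of all genes, 9.04% were lower and 9.29% higher. Mapk14, the p38 alpha kinase, lay at 7.50 ± 0.25 in VSEL, 11.44 ± 0.35 in HSC and 10.36 ± 0.16 in ESC, and was 15.4-fold lower in VSEL than in HSC (limma adjusted p = 0.00035). The kinase gene Map2k2 was 2.04-fold higher (limma adjusted p = 0.0306), and Map2k1, which acts at the same step, was 2.81-fold lower (limma adjusted p = 0.031). In VSEL against ESC 2 were higher and 2 lower, and in HSC against ESC 1 of 15 was higher, Mapk14 at 2.13-fold (limma adjusted p = 0.0221). The count higher than in ESC was 4 without VSEL 2+3, and the count lower 4 without HSC 2.

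Genes that end AP-1 signalling, by taking phosphate off MAP kinases or by mRNA or protein decay, were lower in VSEL than in HSC for 6 of 16 and higher for none (median -2.26). Dusp10, a phosphatase of JNK and p38, was at background in VSEL and at least 20.4-fold lower (limma adjusted p = 0.00796; measured log2 difference -4.52, and -3.92 without HSC 2) and Zfp36l2, an mRNA decay factor, 12.2-fold lower (limma adjusted p = 0.00118). Zfp36, a related decay factor, was 42.6-fold higher in VSEL than in ESC (limma adjusted p = 0.00307). It was 151-fold higher in HSC than in ESC (limma adjusted p = 0.000233). In ESC it lay at 4.50, 6.34 and 6.08, below the olfactory percentile in ESC 1 and near it otherwise, so both folds are measured near background. Of the 16, 2 were higher and 2 lower in VSEL than in ESC, and 6 were higher and none lower in HSC than in ESC. The count lower in VSEL than in HSC ranged from 2 to 8 over the alternatives, and was 3 without VSEL 2+3 or HSC 3. The count lower in VSEL than in ESC was 0 without either VSEL library, and the count higher was 5 without VSEL 2+3.

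Of 18 measured textbook target genes of AP-1, 2 were higher and 1 lower in VSEL than in HSC (median 0.29, and -0.41 to 0.78 over the alternatives). Of all genes, 9.29% were higher and 9.04% lower there. Against ESC, 3 of the 18 were higher and 1 lower in VSEL, and 3 were higher and 3 lower in HSC. Vegfa, called higher in VSEL than in HSC and ESC, lay below the olfactory percentile in every library. Csf2, called higher in VSEL than in ESC, did so too. Fasl, the death ligand of cytotoxic lymphocytes, was at least 29.7-fold lower in VSEL, where it was at background, than in HSC (limma adjusted p = 0.000358). Timp1, an inhibitor of matrix proteases, lay at 8.09 ± 0.036 in VSEL, 5.21 ± 0.53 in HSC and 10.44 ± 0.24 in ESC. It was 7.35-fold higher in VSEL than in HSC (limma adjusted p = 0.00349). Timp1 was below the olfactory percentile in HSC 1 and HSC 2 (4.86 and 4.95) and near it in HSC 3 (5.82), so this fold is measured near background. Mmp9, a protease of neutrophils, was 35.5-fold higher in VSEL than in ESC (limma adjusted p = 0.0152; 12.4-fold with VSEL 1 alone and 101-fold with VSEL 2+3 alone) and 26.3-fold higher in HSC than in ESC (limma adjusted p = 0.0104). The cyclin gene Ccnd1 was 4.60-fold lower in HSC than in ESC (limma adjusted p = 0.0376). The count higher in VSEL than in ESC was 1 without VSEL 2+3 or any ESC library. Without either VSEL library, 6 were higher and 1 lower in HSC than in ESC.

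**Figure D4:**
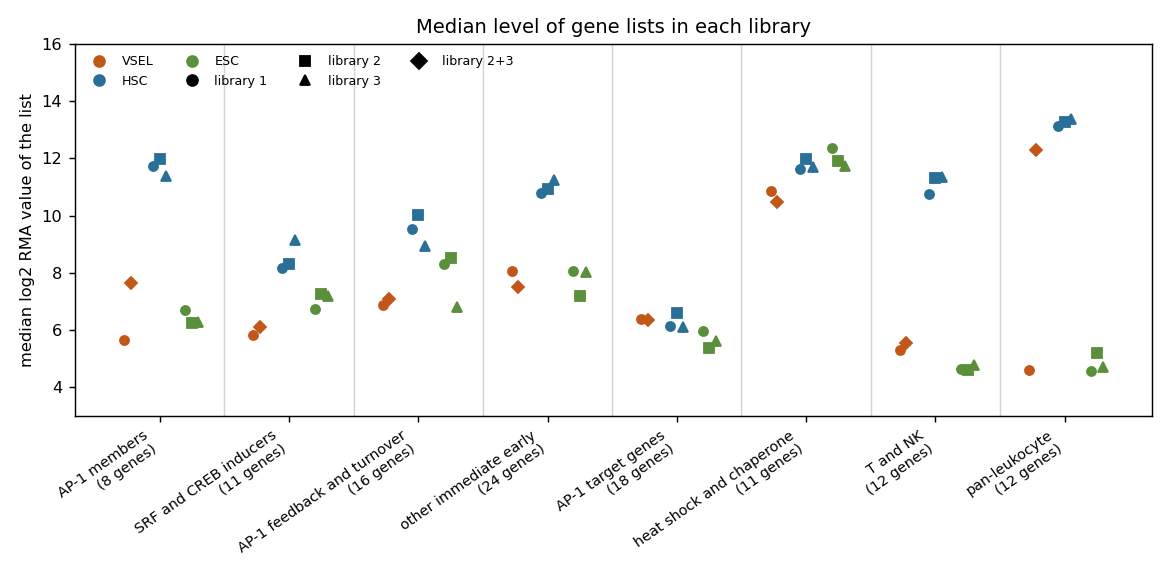
Median log2 RMA value (y axis) of 8 gene lists (x axis) in each library, coloured by cell type with a symbol per library. The AP-1 median is 5.65 and 7.63 in VSEL against 11.38 to 11.98 in HSC, and the T and NK median is 5.28 and 5.56 in VSEL against 10.76 to 11.34 in HSC.

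Other immediate early genes were lower in VSEL than in HSC for 9 of 24 and higher for 3 (median -1.57). Egr1 was 43.6-fold lower (limma adjusted p = 0.00291) and Klf6 36.5-fold lower (limma adjusted p = 0.00738; 55.0-fold with VSEL 1 alone and 24.2-fold with VSEL 2+3 alone), while Gadd45a, a gene of the DNA damage response, was 3.83-fold higher (limma adjusted p = 0.0187). Klf6 lay at 5.60 in VSEL 1, below the olfactory percentile, and at 6.79 in VSEL 2+3, near it, so its folds are measured near background. Of the 24, 7 were higher and 2 lower in VSEL than in ESC, and 13 were higher and 1 lower in HSC than in ESC. The 3 higher in VSEL than in HSC became 0 without VSEL 1 or HSC 1 and 1 without HSC 3, and the 7 higher than in ESC became 4 without VSEL 1 or any ESC library. With the 3' to 5' covariate none of the 24 was called higher in HSC than in ESC. Heat shock and chaperone genes, which also respond to handling, were lower in VSEL than in HSC for 3 of 11 and higher for 1 (median -0.65). Relative to ESC, 4 of 11 were lower in VSEL and none higher, while 1 was higher and 2 were lower in HSC. Hspa1b, an inducible Hsp70 gene, was at background in VSEL and at least 2.03-fold lower than in HSC (limma adjusted p = 0.00116), and Hspb1, a small heat shock protein gene, 8.60-fold higher (limma adjusted p = 0.000796). The other inducible Hsp70 gene of the list, Hspa1a, split the VSEL libraries, at 10.61 in VSEL 1 and 5.35 in VSEL 2+3. It lay at 11.55 to 12.50 in HSC and was not called against HSC (limma adjusted p = 0.115). The 3 lower became 1 without VSEL 2+3. Unsorted cells were not analysed here, and the part of handling in the AP-1 levels was not tested.

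Of the markers of other blood cells, those of T and NK cells were also lower in VSEL than in HSC. Of 12 genes of T and NK cells, 10 were lower and none higher in VSEL than in HSC (median -5.38), and all 12 were higher in HSC than in ESC. Their summed linear signal was 593 in VSEL 1 and 3982 in VSEL 2+3, while it lay at 30187 to 46729 in HSC and at 461 to 483 in ESC. Nkg7 and Ncr1 made up most of the VSEL 2+3 sum, and without them it was 482 in VSEL 1 and 732 in VSEL 2+3. In VSEL, 1 of the 12 lay above the olfactory percentile in both libraries. Cd3g, a chain of the T cell receptor, lay at 4.28 ± 0.14 in VSEL, 12.82 ± 0.24 in HSC and 3.94 ± 0.22 in ESC. The pan-leukocyte median, over 12 genes, was 4.59 in VSEL 1 and 12.28 in VSEL 2+3, while HSC lay at 13.13 to 13.38 and ESC at 4.58 to 5.18. Of these 12 genes, 5 were more than 4 log2 units higher in VSEL 2+3 than in VSEL 1, as were Jun 1448694_at and Fosl2 1437247_at, while 3 were within 1 of each other, Ptprc and Cd48 at background in both and Laptm5 high in both. Fos, Fosb and Jun 1417409_at were as low in VSEL 2+3 as in VSEL 1. Of 13 granulocyte and monocyte genes 1 was lower in VSEL than in HSC, with medians of 13.01 and 14.52 in VSEL and 13.59 to 13.84 in HSC. Of 9 B lineage genes and 7 erythroid genes, 4 each were higher in VSEL than in HSC and none lower. The part of these cell types in the AP-1 levels was not tested.

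The patterns most like each member were sought over the 8 libraries among 9407 genes with a range of at least 2 log2 units. For Fosb they were Cd3g, Cd27 and Klrd1, each with Pearson r of 0.998, which are genes of T and NK cells. For Fos they were Per1, a clock gene (r = 0.996), Celsr1 (0.995) and Cdc42se1 (0.994). For Junb they were Arhgef1 (0.999), Dpp4 (0.992) and Dhx58 (0.989), and for Atf3 Rfx5 (0.987), Pxk (0.987) and Mical1 (0.982). For Jund, on its brighter probe set, they were Kmt2a (0.987), Psmb10 (0.984) and Herc3 (0.981). For Fosl2 1437247_at they were Dock8 (0.992), Gpr65 (0.991) and Dleu2 (0.990), and for Jun 1448694_at Dedd2 (0.990), Notch2 (0.985) and Parp14 (0.985). For Fosl1, near background, the best was B4gat1 (0.939), before Calhm2 (0.9) and Zfand4 (0.886). Jun 1417409_at, outside that rule, was most like Ctla4, a receptor of T cells, Ipcef1 and Sidt1 (each 0.999). Between members, Fosb and Jun 1417409_at correlated at 0.993, Fos and Fosb at 0.969, and Jun 1448694_at and Fosl2 1437247_at at 0.977, while the 2 Jun probe sets correlated at 0.657. All these points share the same 8 libraries and their group differences, so the correlations describe these libraries alone.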

How the data were processed

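The deposited table of 9 arrays gives each probe set's expression as log2 values, and the submitters' processing notes name Partek 6.5 and RMA as what the authors used. No settings are stated. The table was taken as deposited and has no detection calls, and precision is limited by the few arrays. Of 45101 probe sets 64 were controls and were left out. Symbols came from the platform annotation, with 34741 of 34945 one-gene probe sets updated by gene identifier through RefSeq (GRCm38.p6), giving 18193 genes.

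The cell types were tested two-sided in R 4.3.3 by lmFit and eBayes of limma 3.58.1, fitted once to 8 libraries and 45037 probe sets, with 5 residual degrees of freedom, called at a Benjamini-Hochberg adjusted p of 0.05. The fit assumes 1 spread per probe set in all cell types, so SEs of VSEL comparisons can be too small. The fit was tested on simulated data in which VSEL were given the spread of HSC and ESC. That test therefore does not cover a wider spread in VSEL. Genes of lists were read from the probe set with the highest mean. Named genes were every member probe set, up to 2 called genes up and 2 down per list and comparison with the largest differences, and the 3 most correlated genes per member. Same-numbered arrays were checked for pairing: their deviations from group means correlated at -0.092 to 0.16, so numbers were not used as pairs. The members and lists were chosen with earlier results of these data known.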

Additional observations from a re-analysis of the deposited data

How the results depend on the processing

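Over 20 alternatives the 12 probe sets gave 705 differences. Of these, 607 kept direction and stayed either called or not called, 43 lost the call, 16 gained one and 39 turned sign. Fos, Fosb, Junb and Atf3 and Jun 1417409_at kept their VSEL against HSC call wherever tested. With 2 VSEL libraries, small differences and those near background cannot be read, and the cause of the changes below was not tested unless named.

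Counts of called probe sets moved as follows. In VSEL against HSC, 6389 became 2205 with the replicate block, 12732 with ribosomal centring, 27388 with 75th percentile centring, 3170 with 1 probe set per gene (fewer tested), 2435 with the 2 groups alone, 2702 with array weights, and 3524 to 4734 with 1 library left out (5631 without VSEL 2+3). In VSEL against ESC, 6334 became 2210, 10780, 26151 and 3088 in the first 4 of these, 3332 with array weights, 163 with the 3' to 5' covariate, and 2734 to 5973 with 1 library left out. In HSC against ESC, 4788 became 3100 with 1 probe set per gene, 2968 without cross-matching probe sets (fewer tested) and 1039 with the covariate.

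Called members in VSEL against ESC, 2 of 8 genes, became 1 with the replicate block, repeated quantile normalization, the 2 groups alone or array weights, 0 with the covariate (which nearly separates ESC from the others) and 1 to 4 with 1 library left out, 4 being without VSEL 1. For HSC against ESC, 5 became 3 with the covariate. The replicate block (array number) also ended the VSEL against HSC calls of Jund 1449117_at (adjusted p = 0.0709) and Fosl2 1422931_at (0.101). No pairing by array number was seen: 6 of 18 correlations were highest with the own number. With so few arrays per group, and VSEL arrays 2 and 3 nearly alike, this check cannot settle whether same-numbered arrays shared a preparation.

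Signs turned mainly where differences were near 0. In VSEL against HSC, Fosl1 gave 0.14 and 0.074 on 1417487_at and 1417488_at with ribosomal centring and 0.40 and 0.34 with 75th percentile centring. In VSEL against ESC, Fosb gave 0.20 and 0.48 with these centrings. Jun 1417409_at gave -0.056 with 9 arrays kept separate, -0.017 with the replicate block, -0.17 with quantile normalization, -0.0058 with array weights and -0.25 with the covariate. Jund 1440265_at gave -0.016, -0.18, -0.0007 and -0.34 with separate arrays, quantile normalization, array weights and the covariate, and Jund 1449117_at gave -0.83 with the covariate. In HSC against ESC, Fosl2 1422931_at gave 0.0086 with quantile normalization and 0.17 with the covariate.

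With 1 library other than VSEL 2+3 left out, differences in VSEL against HSC ranged from -0.47 to 0.17 and from -0.40 to 0.060 for Fosl1 1417487_at and 1417488_at (0.11 for the second without VSEL 2+3). They ranged from -2.24 to 1.53 for Fosl2 1437247_at (-5.38 without VSEL 2+3) and from -1.66 to 0.96 for Jun 1448694_at (-3.80 without VSEL 2+3). Those in VSEL against ESC ranged from -0.29 to 0.26 for Fosb (0.0012 without VSEL 2+3), from -0.11 to 0.62 for Fosl1 1417487_at, from -0.17 to 0.064 for Jun 1417409_at and from -0.060 to 0.043 for Jund 1440265_at. Without VSEL 2+3 they were -0.23 for Fosl2 1437247_at and -0.12 for Jun 1448694_at, and without VSEL 1 they were 6.68 and 4.64. Those in HSC against ESC ranged from -0.025 to 0.70 for Fosl1 1417487_at and from -0.10 to 0.032 for Fosl2 1422931_at.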
